A study of Drosophila melanogaster with 8 samples.

Results

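The Dpr and DIP genes encode paired families of immunoglobulin-domain proteins on the surface of Drosophila melanogaster neurons. Members were all rows of the count table whose FlyBase symbol is dpr with a number or DIP- with a Greek letter, after the CG numbers of the table had been matched to symbols. The RefSeq gene table holds 32 such genes, and 31 of them, 20 Dpr and 11 DIP, had a row among the 12082 gene rows. All 31 passed the filter on low counts. The gene dpr21 was not analysed here, and DIP-lambda was represented by the row of the older identifier CG40378, which is now part of the gene, so its row may not cover the whole transcript.

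PolyA RNA of whole females was sequenced, with 4 libraries per genotype. The Mutant females carried the alleles DHR78[1] and DHR78[3] of Hr78 (DHR78), a nuclear receptor gene, in a transheterozygous combination, together with the transgene btl>DHR78. The Control females carried btl>DHR78 without these alleles. In both genotypes the transgene therefore supplied the receptor through the driver of breathless, a gene of the tracheal system, so the comparison is between females that differ in the chromosomal Hr78 gene while both carried the transgene. All females were 1 week old and raised on 8% yeast and 9% sugar. Each library pooled RNA of 2 collections of 12 females, and no further biological pairing of libraries is given in the labels.

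Dpr is named for defective proboscis extension response, the behaviour that was changed in mutants of the founding gene, dpr1. DIP stands for Dpr-interacting protein. Each DIP binds a particular set of Dpr proteins across the contact between cells, and different neurons carry different members, so that the families act as labels by which neurons recognise synaptic partners and, for some members, survive during development. Among well described pairings in flies, DIP-alpha binds the products of dpr6 and dpr10, DIP-gamma those of dpr11, dpr15, dpr16 and dpr17, DIP-delta that of dpr12, and DIP-eta, DIP-theta and DIP-iota those of dpr1 to dpr5.

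Libraries held 22608378 to 33054191 counts in the Mutant and 19544675 to 28106635 in the Control. Hr78 itself was at 71.6 ± 1.71 CPM (TMM-scaled CPM, a level relative to the size of the library) in the Mutant and 123 ± 4.22 CPM in Control females (SD, n = 4 each). This checks the labels only in part, since reads of the transgene and of the chromosomal gene are not separated. Mutant replicate 2 stood apart from the other libraries by transcripts of male tissue. The summed level of 17 genes of the male tract and testis was 293 CPM in that library and 35.9 to 41.5 CPM in the other 7, where Acp95EF alone gave 35.5 to 40.8 CPM. All 17 rows were highest in Mutant replicate 2, and 15 of them averaged under 3 counts in the other libraries. Some results are therefore also given without it. Neurons were represented in the RNA, with all 15 pan-neuronal markers passing the filter, and their summed level was 630 to 723 CPM in the Mutant and 664 to 726 CPM in the Control.

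The members were lowly expressed in whole females. Their mean over the 8 libraries ran from 0.802 CPM (DIP-delta) to 7.12 CPM (dpr7), and single counts from 10 to 320. Every member was thus above 3 counts, which correspond to 0.0916 to 0.155 CPM, in every library. On a scale that corrects for transcript length (RPKM, from the exonic length in the Ensembl annotation), Control levels of the 20 Dpr genes had a median of 0.669 and a range from 0.212 (dpr2) to 4.36 (dpr7). Those of 10 DIP genes had a median of 0.376 and ran from 0.150 (DIP-delta) to 1.55 (DIP-epsilon), and DIP-lambda was left out because its row may be partial. Per length, dpr7 was the most abundant member in both genotypes, at 5.04 RPKM in the Mutant and 4.36 RPKM in the Control. At the median, the spread between libraries of 1 genotype was not far above that of counting alone. The coefficient of variation of a member had a median of 16.2% in the Mutant and 17.8% in the Control, while counting error alone gives a median of 12.2% and 14.6%. It was at or under that of counting for 11 members in the Mutant and 10 in the Control. Some members lay far above it in the Mutant, such as dpr17 (61.8% against 10.1%) and DIP-zeta (47.0% against 16.3%).

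Of the 31 members, 4 were higher in the Mutant and none lower at an adjusted p of 0.05, namely dpr6, DIP-lambda, DIP-iota and dpr18 (edgeR quasi-likelihood test, Benjamini-Hochberg over all genes tested). The other 27 did not pass the threshold. Over all 10525 genes tested, 19.6% passed in either direction, 8.46% as higher and 11.1% as lower in the Mutant, and of the 1917 genes within the members' range of mean CPM 6.83% passed as higher and 7.09% as lower. With upper quartile scaling 1499 genes passed as higher and 872 as lower, against 890 and 1173 with TMM, while the same 4 members passed. The share of members called, 12.9%, lay above the shares called as higher, 8.46% and 6.83%. It was near the 13.9% called in either direction within the members' range of mean CPM. With only 4 genes called, their number is not read as a result about the families. Without the adjustment, 9 members (29.0%), 7 of them Dpr genes, had an edgeR p under 0.05, and all 9 were higher in the Mutant. Over all genes tested this was so for 33.9% in either direction and 16.1% as higher, and within the members' range of mean CPM for 26.8% in either direction and 13.6% as higher. The log2 fold change, Mutant over Control, was above 0 for 26 members and below 0 for 5, with a median of 0.18, beside 52.4% above 0 and a median of 0.01 over all genes tested. By family it was above 0 for 18 of 20 Dpr genes (median 0.21) and 8 of 11 DIP genes (median 0.08). The number of members above 0 was 29 with upper quartile scaling, 23 without Mutant replicate 2 and 22 without Mutant replicate 3. Upper quartile scaling also moved the median of all genes, to 0.06, beside 0.23 for the members.

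**Figure D1:**
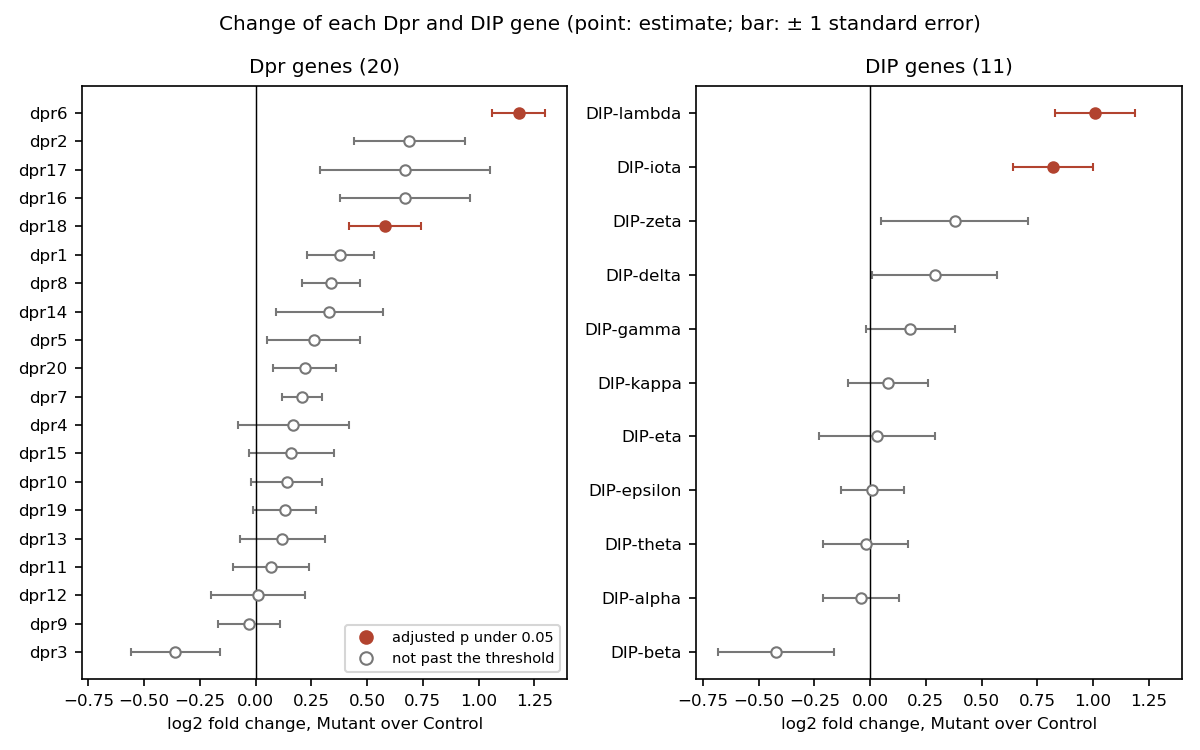
Log2 fold change, Mutant over Control, of the 20 Dpr genes (left) and the 11 DIP genes (right), each sorted from the highest at the top, with bars of ± 1 standard error from edgeR. Filled points mark the 4 genes past an adjusted p of 0.05, of which dpr6 is the highest at 1.18, and dpr3 and DIP-beta have the lowest values at -0.36 and -0.42.

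The gene with the largest change was dpr6, a ligand of DIP-alpha that is known from the layers of the optic lobe. Its level was 9.77, 10.2, 8.45 and 10.9 CPM in Mutant replicates 1 to 4, against 4.78, 4.60, 4.25 and 3.56 CPM in Control replicates 1 to 4. Every Mutant library lay well above every Control library. Its mean was 9.82 ± 1.02 CPM in the Mutant and 4.30 ± 0.537 CPM in the Control (SD, n = 4 each), a 2.27-fold rise (log2 fold change 1.18 with standard error 0.12, adjusted p 0.000129 by edgeR). The two-sided exact permutation p over libraries was 0.0286, the smallest that 4 libraries against 4 allow. Per length, dpr6 (CG14162) stood at 1.56 RPKM in the Mutant and 0.681 RPKM in the Control.

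Neither DIP-alpha nor dpr10, grouped above with dpr6 by binding, passed the threshold. Pairings of the dpr6 product with other DIP proteins were not considered. DIP-alpha, a receptor of the dpr6 product, was at 1.59, 1.80, 2.01 and 1.90 CPM in the Mutant, against 2.09, 1.62, 2.05 and 1.70 CPM in the Control, so that the genotypes overlapped. The log2 fold change was -0.04, its standard error 0.17 and the adjusted p 0.893 by edgeR. The gene dpr10, whose product binds the same receptor and which is known from larval muscles as well as neurons, was at 2.56, 2.31, 2.72 and 1.86 CPM in the Mutant, against 2.35, 2.17, 1.96 and 2.12 CPM in the Control (log2 fold change 0.14, standard error 0.16, adjusted p 0.593 by edgeR). Both dpr6 and dpr10 lie on arm 3L.

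Ratios of counts within a library do not depend on the scaling between libraries. The ratio of dpr6 to dpr10 was 3.81, 4.41, 3.10 and 5.84 in the Mutant, against 2.03, 2.12, 2.17 and 1.68 in the Control. The ratio of dpr6 to DIP-alpha was 6.15, 5.67, 4.20 and 5.70 in the Mutant, against 2.29, 2.83, 2.07 and 2.09 in the Control. Neither ratio overlapped between the genotypes, and the mean log2 ratios differed by 1.07 and 1.22. These ratios, and those of DIP-iota to its relatives, were chosen after the values had been seen and are given as a description, with no test.

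**Figure D2:**
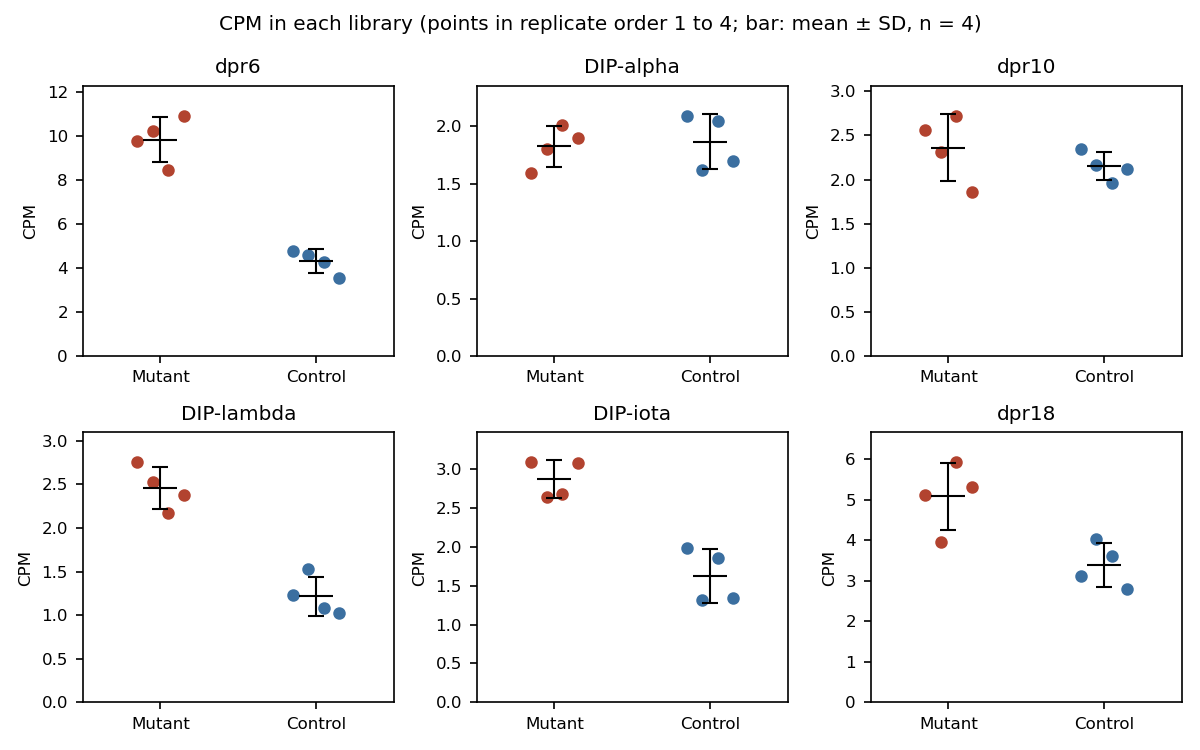
CPM in each library for dpr6, for DIP-alpha, a receptor of its product, and for dpr10, which shares that receptor (top row), and for DIP-lambda, DIP-iota and dpr18 (bottom row), with Mutant left and Control right and bars for mean ± SD (n = 4). The Mutant points of dpr6 (8.45 to 10.9 CPM), DIP-lambda and DIP-iota lie above all Control points, whereas those of DIP-alpha and dpr10 overlap with the Control, and for dpr18 the lowest Mutant point lies under the highest Control point.

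Among the DIP receptors, DIP-lambda and DIP-iota rose. The row of DIP-lambda (CG40378, arm 2R) was at 2.75, 2.53, 2.17 and 2.38 CPM in the Mutant, against 1.23, 1.53, 1.08 and 1.03 CPM in the Control. All Mutant libraries lay above all Control libraries, and the row rose 2.01-fold (log2 fold change 1.01, standard error 0.18, adjusted p 0.00356 by edgeR). DIP-iota (CG11320, arm 2L) was at 3.08, 2.64, 2.68 and 3.07 CPM in the Mutant, against 1.98, 1.31, 1.86 and 1.34 CPM in the Control. Its libraries did not overlap either, and it rose 1.76-fold (log2 fold change 0.82, standard error 0.18, adjusted p 0.0103 by edgeR).

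The relatives of DIP-iota that bind the same Dpr proteins did not pass the threshold. DIP-theta was at 1.83, 2.35, 1.86 and 1.73 CPM in the Mutant, against 2.57, 1.81, 1.71 and 1.76 CPM in the Control, with an adjusted p of 0.946 by edgeR and a log2 fold change of -0.02. DIP-eta averaged 0.949 ± 0.143 CPM in the Mutant and 0.934 ± 0.297 CPM in the Control (SD, n = 4 each; adjusted p 0.953 by edgeR). The ratio of DIP-iota to DIP-theta was 1.12 to 1.77 in the Mutant and 0.725 to 1.09 in the Control, and that of DIP-iota to DIP-eta 2.57 to 4.18 in the Mutant and 1.26 to 2.36 in the Control. The mean log2 ratios differed by 0.85 and by 0.77.

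Among the Dpr genes whose products bind DIP-iota, none of dpr1 to dpr5 passed the threshold. The founding member dpr1, known for the aversion of flies to salt, was at 2.84, 3.08, 3.55 and 3.16 CPM in the Mutant, against 2.69, 2.08, 2.64 and 2.27 CPM in the Control. Its genotypes did not overlap, yet its adjusted p was 0.0999 by edgeR (log2 fold change 0.38, standard error 0.15). For dpr2, the Dpr gene with the lowest Control level per length, the values were 1.25, 1.06, 1.07 and 0.822 CPM in the Mutant, against 0.933, 0.542, 0.538 and 0.568 CPM in the Control. The log2 fold change was 0.69 (standard error 0.25, adjusted p 0.0809 by edgeR), and without Control replicate 1, the highest Control library, it was 0.94 at an adjusted p of 0.0326. The gene dpr3 had the lowest log2 fold change of the Dpr genes (-0.36, standard error 0.20, adjusted p 0.223 by edgeR), with 1.80, 1.83, 1.70 and 1.21 CPM in the Mutant, against 2.28, 1.85, 2.54 and 1.76 CPM in the Control. For dpr4 the values were 1.04, 1.80, 1.54 and 1.60 CPM in the Mutant, against 1.64, 1.58, 0.978 and 1.03 CPM in the Control. Those of dpr5 were 1.98, 1.47, 1.58 and 1.30 CPM in the Mutant, against 1.34, 1.31, 1.61 and 1.03 CPM in the Control. Both overlapped between the genotypes, with log2 fold changes of 0.17 and 0.26.

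The rise of dpr18 (CG14948, on the X chromosome) depended on which libraries were used. Its level was 5.13, 3.96, 5.92 and 5.32 CPM in the Mutant, against 3.13, 4.02, 3.62 and 2.79 CPM in the Control. Mutant replicate 2 lay just under Control replicate 2. The rise was the smallest of the 4 (log2 fold change 0.58, standard error 0.16, adjusted p 0.0274 by edgeR). The call was lost when Control replicate 1, 3 or 4 or Mutant replicate 1, 3 or 4 was left out, with adjusted p between 0.0511 and 0.0795. Without Mutant replicate 2 the log2 fold change was 0.68 and the adjusted p 0.00971.

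The most abundant members apart from dpr6 and dpr18 were dpr7 and dpr8 among the Dpr genes. The values of dpr7, on chromosome 4, were 7.69, 7.51, 8.17 and 7.14 CPM in the Mutant, against 6.72, 6.27, 6.55 and 6.87 CPM in the Control. Its genotypes did not overlap, but the difference was small, at 0.21 on the log2 scale (standard error 0.09, adjusted p 0.119 by edgeR). For dpr8, on the X chromosome, they were 6.35, 6.34, 6.95 and 6.10 CPM in the Mutant, against 4.07, 6.14, 5.52 and 4.70 CPM in the Control. Mutant replicate 4 lay under Control replicate 2, and the adjusted p was 0.0997 by edgeR (log2 fold change 0.34). It passed the threshold without Control replicate 2 (adjusted p 0.0498) and with an offset for transcript length (0.0487). In all, 5 members had every Mutant library above every Control library (dpr1, dpr6, dpr7, DIP-iota and DIP-lambda) and none the reverse, beside 11.7% and 13.2% of all genes tested.

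DIP-epsilon was the most abundant DIP gene and showed no difference beyond the spread, with 4.03, 5.28, 6.12 and 4.24 CPM in the Mutant, against 5.26, 4.69, 4.60 and 4.96 CPM in the Control. Its log2 fold change was 0.01 with a standard error of 0.14 (adjusted p 0.975 by edgeR), and the Mutant libraries lay both above and below those of the Control. DIP-gamma, a receptor known from colour vision circuits and from the neuromuscular junction, was at 2.29, 2.35, 2.72 and 2.60 CPM in the Mutant, against 1.42, 2.80, 2.30 and 2.27 CPM in the Control (log2 fold change 0.18, standard error 0.20, adjusted p 0.560 by edgeR). Its partner genes dpr11, dpr15, dpr16 and dpr17 had log2 fold changes of 0.07, 0.16, 0.67 and 0.67, none past the threshold. The fold change of dpr17 rested on a single library. Mutant replicates 1 to 4 were at 2.26, 6.96, 2.96 and 2.34 CPM and Control replicates 1 to 4 at 2.16, 2.12, 2.93 and 1.91 CPM. The high value belongs to Mutant replicate 2, the library with male transcripts, and without it dpr17 had a log2 fold change of 0.14 (adjusted p 0.655 by edgeR).

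**Figure D3:**
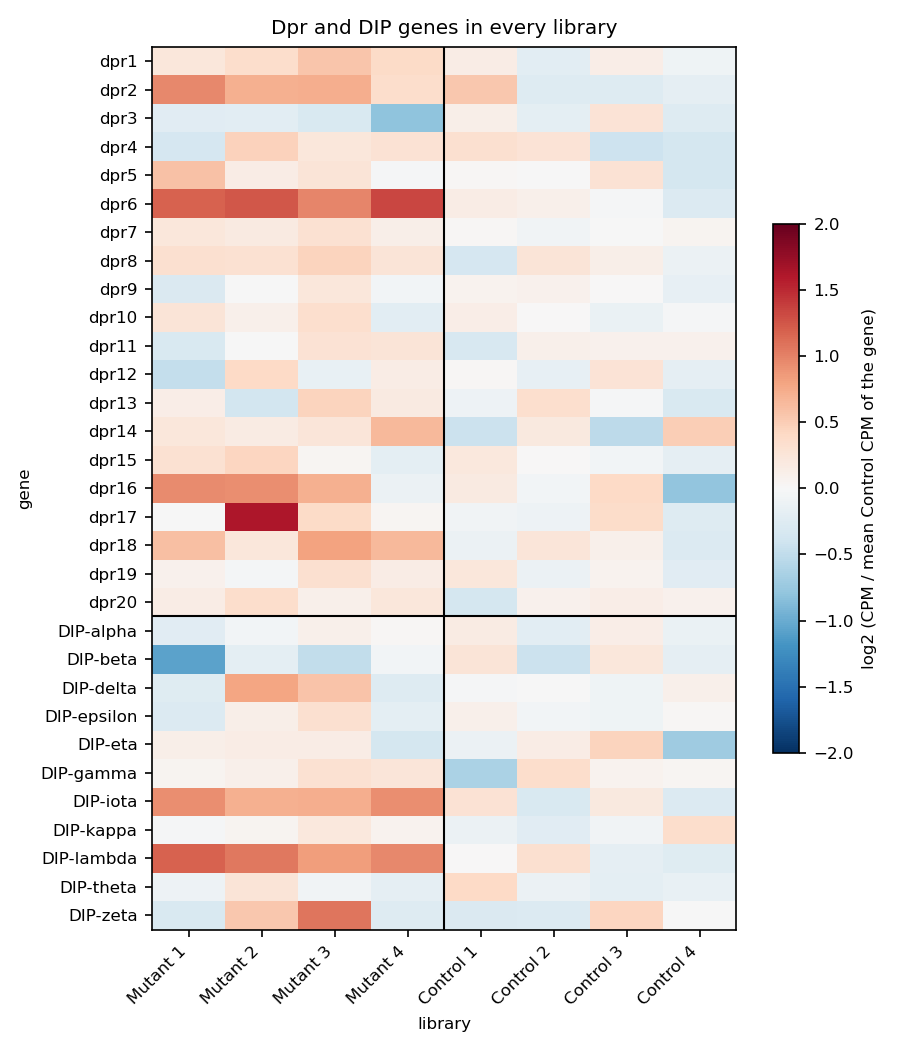
Log2 of the CPM in each library over the mean Control CPM of the gene, for the 20 Dpr genes (above the line) and the 11 DIP genes (below), with the 4 Mutant libraries left of the 4 Control libraries. The rows of dpr6, DIP-iota and DIP-lambda are high in all Mutant libraries, while dpr17 is high in Mutant replicate 2 alone (6.96 CPM).

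The remaining members did not pass the threshold and overlapped between the genotypes. They are dpr9, dpr12, dpr13, dpr14, dpr19, dpr20, DIP-beta, DIP-delta, DIP-kappa and DIP-zeta. DIP-beta had the lowest log2 fold change of all members, -0.42 with a standard error of 0.26 (adjusted p 0.291 by edgeR), at 0.920 ± 0.258 CPM in the Mutant and 1.22 ± 0.267 CPM in the Control (SD, n = 4 each). The pair of dpr12 and DIP-delta, known from the wiring of the mushroom body, had log2 fold changes of 0.01 and 0.29. Without Mutant replicate 2 these were -0.15 and 0.07. With a count of 14 to 34 in a library, DIP-delta was among the members for which counting error is widest. Standard errors of the 31 members had a median of 0.19, beside 0.18 for genes within their range of mean CPM and 0.07 over all genes.

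Summed over the 20 Dpr genes, the level was 66.4 to 72.1 CPM in the Mutant and 50.5 to 57.3 CPM in the Control, without overlap. The mean was 69.6 ± 2.98 CPM in the Mutant and 54.9 ± 3.16 CPM in Control libraries (SD, n = 4 each), and dpr6 made up 5.52 of the 14.7 CPM between them, or 37.6%. Without dpr6 the sum was 56.6 to 63.6 CPM in the Mutant and 46.9 to 53.1 CPM in the Control. The sum over the 11 DIP genes was 20.4 to 24.8 CPM in the Mutant and 18.8 to 20.1 CPM in the Control. DIP-iota and DIP-lambda made up 2.49 of the 3.05 CPM between the DIP means, and without them the DIP sum overlapped between the genotypes, since the lowest Mutant library, at 14.5 CPM, lay under the highest Control library, at 17.2 CPM. Without its own called genes, dpr6 and dpr18, the Dpr sum was 51.5 to 58.0 CPM in the Mutant and 44.2 to 49.5 CPM in the Control. In RNA of whole females, more cells that carry a transcript and more transcript per cell cannot be told apart. The pan-neuronal sum averaged 675 ± 38.3 CPM in Mutant libraries and 694 ± 28.7 CPM in Control libraries. It leans on Csp, which alone gave 189 CPM in the Mutant and 214 CPM in the Control. Csp was itself called as lower in the Mutant (adjusted p 0.00931 by edgeR). When libraries were scaled to these pan-neuronal counts in place of TMM, the same 4 members passed the threshold, and the log2 fold change of dpr6 was 1.23.

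**Figure D4:**
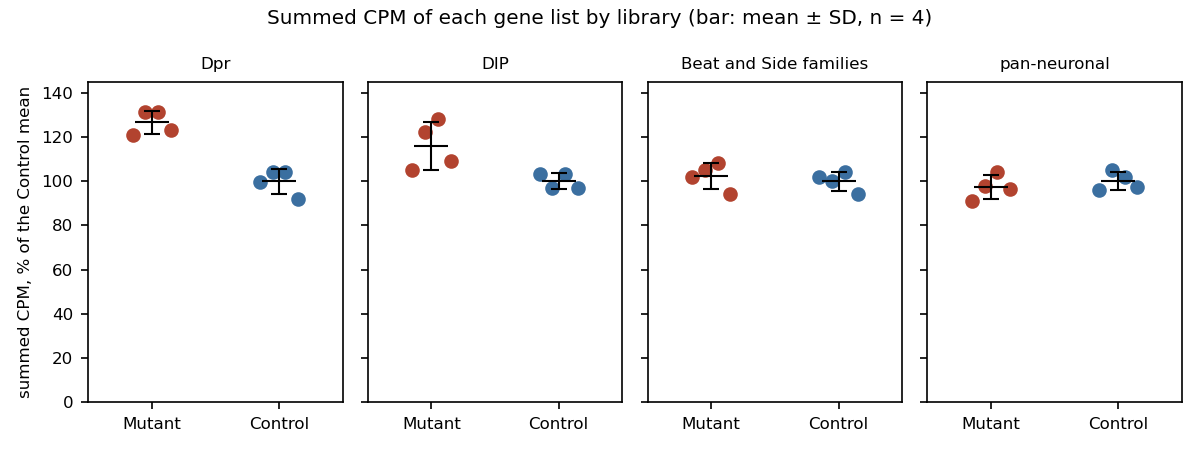
Summed CPM of the Dpr, DIP, Beat and Side, and pan-neuronal genes in each library, as a percentage of the Control mean of that list, with Mutant left and Control right and bars for mean ± SD (n = 4). The Dpr sum (66.4 to 72.1 CPM in the Mutant, 50.5 to 57.3 CPM in the Control) and the DIP sum do not overlap between the genotypes, while the other sums do, as does the DIP sum without DIP-iota and DIP-lambda (not drawn).

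Other genes of recognition, guidance and adhesion were compared by lists. In whole females their RNA may also come from tissues other than neurons, which was not tested. The Beat and Side genes encode another network of paired immunoglobulin proteins, known from motor axons that leave the nerve toward muscle. Of 21 tested, none passed the threshold in either direction in edgeR, in DESeq2 or in limma-voom, and 1 had an unadjusted p under 0.05 in edgeR. Their median log2 fold change was 0.13. Of 39 other genes of axon guidance, adhesion and neuronal recognition, 2 rose and 9 fell, with a median of -0.14. That is 28.2% of the list, beside 19.6% of all genes tested called in either direction and 11.1% called as lower. The falls with the smallest adjusted p were those of Dscam4, Ten-a and 18w, with log2 fold changes of -0.83, -0.82 and -0.39. Dscam4, an immunoglobulin protein, was at 22.4 ± 1.81 CPM in Mutant and 39.7 ± 3.48 CPM in Control females (SD, n = 4 each). Ten-a, a teneurin that matches synaptic partners, was at 10.2 ± 1.10 CPM in the Mutant and 18.2 ± 0.416 CPM in the Control, and 18w, a Toll receptor, at 30.8 ± 0.838 CPM in the Mutant and 40.2 ± 2.86 CPM in the Control. With an offset for transcript length 5 of this list fell, and with Control replicate 3 or Mutant replicate 3 left out 0 rose.

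Of the 2 that rose, the gene tied to these families is cDIP, which encodes a leucine-rich repeat protein known to bind many Dpr and DIP proteins. It was at 6.96, 8.61, 10.1 and 7.92 CPM in the Mutant, against 6.68, 6.05, 5.13 and 5.73 CPM in the Control, and its genotypes did not overlap. It rose by 0.50 on the log2 scale (standard error 0.13, adjusted p 0.0219 by edgeR). The call was lost without Control replicate 3 (0.0627), Control replicate 4 (0.0533) or Mutant replicate 3 (0.0647). The relatives of the DIP proteins klg and Lac had log2 fold changes of 0.06 and 0.08, with adjusted p of 0.781 and 0.299 (edgeR).

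**Figure D5:**
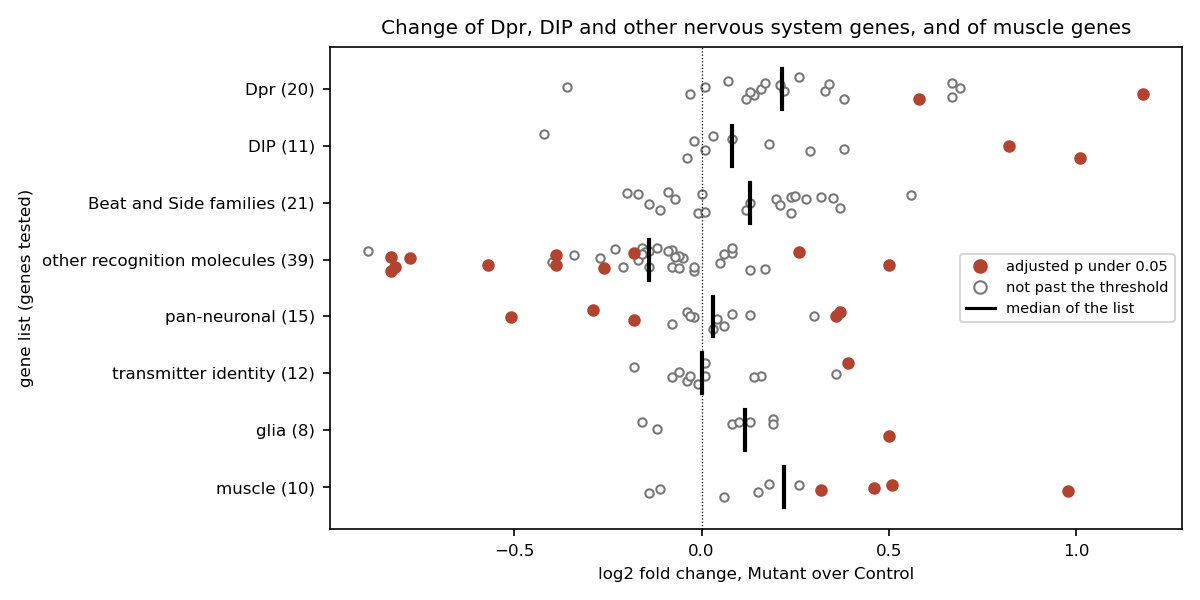
Log2 fold change, Mutant over Control, of each tested gene in 8 lists, with the median of each list as a bar and filled points for an adjusted p under 0.05. Of the 31 Dpr and DIP genes 4 have filled points, all on the right side (0.58 to 1.18), and the other 27 are open (-0.42 to 0.69). The Beat and Side genes have no filled points, and most of those of the other recognition molecules lie on the left side.

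Markers of the cell types that could carry these transcripts moved in part, and their counts are to be read beside the 8.46% of all genes tested that were called as higher and the 11.1% called as lower. Of 15 pan-neuronal genes 2 rose and 3 fell, with a median log2 fold change of 0.03. Csp, a synaptic vesicle protein, fell by 0.18, and Syn (synapsin) rose by 0.36, while futsch, a microtubule protein of axons, fell by 0.29 on the log2 scale. Also called were brp, which fell by 0.51, the largest change of this list, and Snap25, which rose by 0.37 (adjusted p 0.0232 and 0.0200 by edgeR). Of 12 genes of transmitter identity 1 rose, ple (tyrosine hydroxylase, log2 fold change 0.39), and of 8 glial genes 1 rose, wrapper (0.50). Of 7 enteroendocrine genes pros and CCHa2 fell, by 0.63 and by 0.32, and of 7 ovary genes bam rose (0.47). Of 10 muscle genes 4 rose, among them Mlp60A (0.51), Act57B (0.46) and Act88F (0.98), with a summed level of 1969 to 2154 CPM in the Mutant and 1667 to 2078 CPM in the Control. Several of these calls rested on single libraries or settings. For the glial list 0 genes rose without Mutant replicate 2, with DESeq2 or with the replicate block, for the ovary list 0 rose without Mutant replicate 2 or with the length offset, and for the enteroendocrine list 0 fell without Mutant replicate 1 or 4. With the length offset 4 pan-neuronal genes rose and 1 fell. The part of muscle or of any of these cell types in the changes of the Dpr and DIP genes was not tested.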

How the data were processed

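The deposited file is a table of raw read counts by gene, whole numbers that the authors did not normalize, with 1 column for each of 8 libraries. Per the submitters' processing notes the build was dm3 and DESeq was used. Strandedness, aligner, counter and annotation were not given in the sources used here, so reads of overlapping genes (DIP-alpha, DIP-gamma, DIP-theta, DIP-zeta, dpr4 and dpr16 overlap exons of a neighbour in the Ensembl annotation) may not be separated. Each library is treated as a replicate on the strength of the labels. Pairs of libraries within a genotype all differed beyond sampling noise (chi-square per degree of freedom 10.4 to 36.3). No column was left unmapped, and 1 row that names no gene (0.0154% to 0.0176% of counts) was left out.

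CG numbers were matched to symbols, and arms taken, from the RefSeq gene table of Release 6. Exonic lengths for RPKM come from Ensembl release 115 and may differ from those the authors used. In R 4.3.3, counts were filtered with filterByExpr (minimum count 10), scaled with TMM and compared by edgeR 4.0.16 with the robust quasi-likelihood test, two-sided, with Benjamini-Hochberg adjustment over 10525 genes at 0.05. Standard errors were taken as the log2 fold change, without sign, over the square root of F. The fit was also run on counts simulated from the dispersions of these data, with the outcome not reported here. Permutation tests used scipy 1.17.1 and plots matplotlib 3.10.9. Counting limits cover counting error only.

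The members and lists were chosen with earlier results of these data known. The text gives library values for members past the threshold, for the 4 most abundant of each family and for the partners of called members in the pairings listed above. No partners were listed for DIP-lambda and dpr18. Up to 3 called genes of each other list are named, and all called genes of the pan-neuronal list. The library values of dpr10, dpr17 and cDIP, and the genes Lac, klg, brp and Snap25, were added after their values were seen. Alternatives were RLE and upper quartile scaling, no filter, a filter of 1 CPM in 4 libraries, DESeq2 1.42.0, limma-voom (limma 3.58.1), each library left out, the replicate number as a block, an offset for transcript length, and, added after seeing the data, scaling to pan-neuronal counts.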

Additional observations from a re-analysis of the deposited data

Results flagged for a closer look

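A check for a single library far from the other 3 of its genotype ran over 86 groups of 4 values (31 members, cDIP and the summed lists in each genotype), of which chance alone marks about 1 in 20. It marked 8. In the Mutant, replicate 2 was at 6.96 CPM of dpr17 against 2.26 to 2.96 CPM in the others, and at 293 CPM of the summed male tract and testis genes against 37.4 to 41.5 CPM. Mutant replicate 4 was at 0.735 CPM of DIP-eta against 1.01 to 1.03 CPM, and at 2.51 CPM of dpr14 against 1.80 to 1.90 CPM. In the Control all 4 marks belong to replicate 1, which was high for DIP-theta (2.57 CPM against 1.71 to 1.81 CPM) and dpr2 (0.933 against 0.538 to 0.568 CPM), and low for dpr11 (2.39 against 3.15 to 3.20 CPM) and dpr20 (2.50 against 3.36 to 3.47 CPM).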

How the results depend on the processing

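Under all 17 alternatives dpr6, DIP-lambda and DIP-iota stayed higher in the Mutant and past the threshold, with log2 fold changes of 1.11 to 1.32, 0.94 to 1.14 and 0.73 to 0.93. dpr18 passed in 11 of 17. Members called as higher numbered 3 to 5 with a library left out and 4 or 5 otherwise, and none was called as lower in any. The count over all genes was 2063, 1476 to 1702 with a library left out, and 1232 when scaled to pan-neuronal counts (538 lower). Genes called as higher numbered 1499 with upper quartile scaling, which gave 63.2% of calls as higher, against 43.1% with TMM, 50.1% with the length offset and 56.3% with pan-neuronal scaling. Genes called as lower numbered 743 with the length offset. The causes of these shifts were not tested.

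Members that were not called changed sign in 35 of 457 values. DIP-alpha was at 0.01 with upper quartile scaling and 0.15 with the length offset, dpr9 at 0.02 and 0.06, and at 0.01 with pan-neuronal scaling. DIP-theta was at 0.02 with upper quartile scaling and 0.01 with pan-neuronal scaling. DIP-epsilon was at -0.02 and dpr12 at -0.03 with limma-voom, and both at -0.01 with the replicate block. With a library left out DIP-alpha ran from -0.10 to 0.02, dpr9 from -0.12 to 0.06, DIP-theta from -0.13 to 0.14, DIP-epsilon from -0.12 to 0.10, dpr12 from -0.15 to 0.15, DIP-eta from -0.14 to 0.20, dpr11 from -0.02 to 0.19 and dpr13 from 0.00 to 0.26. Correlations of deviations between libraries of the same replicate number ran from -0.10 to 0.21, and a shared order of handling was not tested. With the replicate block 2405 genes and the same 4 members passed, against 2063 genes without the block. Counts of members called in the short lists of other cell types often changed by 1 or more. DIP-delta and dpr2 were not tested under the filter of 1 CPM in 4 libraries.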
